A study of Mus musculus with 18 samples.

Results

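The genes described here are 8 transcription factors that set and keep the hepatocyte lineage, Cebpa, Cebpb, Foxa1, Foxa2, Foxa3, Onecut1, Onecut2 and Prox1. They were chosen by symbol from the 28442 genes of the deposited table, and all 8 were found. Bulk poly-A RNA-seq was done on 6 livers and 12 advanced tumors of male Alb-R26Met mice, F1 of C57BL/6JRj and 129S2/SvPasOrlRj. All mice, those of the control livers included, carry Alb-Cre and a mouse-human chimeric Met transgene at Rosa26 that Cre switches on under the albumin promoter, so the livers are transgenic too. The livers came from mice without tumors, 52 to 71 weeks old (median 56.5), and the tumors from mice 49 to 72 weeks old (median 65). Tumors 11 and 12 were taken from the same animal, so 17 mice gave the 18 samples. Each sample name also ends in a tag, whose meaning is not given in the sources used here. E19 marks 2 of the livers and 7 of the tumors, whereas the remaining 4 livers and 5 tumors bear E20.

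C/EBP factors are basic leucine zipper proteins. C/EBP alpha holds mature hepatocytes in a metabolic, non-dividing state, while C/EBP beta acts in the acute phase response and in liver regeneration. The FoxA factors are winged helix proteins that open chromatin at liver genes in the early endoderm, and they later work beside the Onecut factors, which carry a cut domain and a homeodomain and act in hepatocytes and in bile duct formation. Prox1 is a homeodomain factor that lets hepatoblasts migrate from the liver bud, and it also marks lymphatic endothelium.

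The deposited values are whole numbers. The study describes them as raw counts, but they match rounded TPM, a share of transcripts per library, and are called TPM here. They take gene length into account and can be set side by side between genes. They added up to between 835144 and 907513 per sample. The reads that each number rests on cannot be read from rounded TPM, so depth per value is unknown and counting intervals are not given. Tumor 2 stood apart from the rest, since a single gene, Siglece, made up 82.9% of its total, against 17.9% to 53.4% in the other 17 samples. It had 8718 genes above 0, where the others had between 11508 and 13819. For tests between samples, values were therefore divided by a factor per sample (a trimmed mean of M values, called scaled values here), and main results that rest on tumor 2 are also given without it. Of 11452 genes tested by limma, 19% had an adjusted p under 0.05 between tumors and livers, 9.2% lower and 9.81% higher in tumors. Met, which checks the labels, ran from 25 to 207 in tumors against 15 to 48 in livers and rose by 2.23 on the log2 scale (limma, adjusted p = 4.45e-08), but its transgene was not told apart from the mouse gene. Hepatocyte markers were present throughout, and albumin (Alb) ran from 19995 to 32414 in livers and from 6050 to 53033 in tumors.

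The stretches upstream of 2 of the genes are shown because Onecut factors are known regulators of Foxa2 and because the FoxA genes are known to be bound by their own family. RefSeq promoter windows of GRCm38.p6, from 250 bases before to 50 after a start, were given for 7 of the 8 genes. They were searched on both strands for the letters TGTTTAC (forkhead), TTGCNNAA (C/EBP), ATCAAT (Onecut), CAAAGTCC (part of an Hnf4 site) and CCAAT. The 250 bases before the start of Foxa2 lie at chr2:148046970-148047219 on the minus strand, and those of Foxa1 at chr12:57546112-57546361 on the minus strand. Capitals mark the matches, an Onecut match and a CCAAT match in Foxa2 and a CCAAT match and a forkhead match in Foxa1.
Foxa2: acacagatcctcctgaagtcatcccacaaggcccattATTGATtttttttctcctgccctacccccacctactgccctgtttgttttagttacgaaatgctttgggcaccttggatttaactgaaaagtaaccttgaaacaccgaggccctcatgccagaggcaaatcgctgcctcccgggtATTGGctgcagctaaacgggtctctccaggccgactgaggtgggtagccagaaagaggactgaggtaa
Foxa1: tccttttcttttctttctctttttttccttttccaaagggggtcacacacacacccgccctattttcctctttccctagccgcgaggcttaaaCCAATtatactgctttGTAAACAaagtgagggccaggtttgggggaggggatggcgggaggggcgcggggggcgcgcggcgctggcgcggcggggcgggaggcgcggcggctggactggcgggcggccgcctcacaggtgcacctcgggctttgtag
The Onecut match of Foxa2 is at position -213 from the start, and the forkhead match of Foxa1 at -141. The Foxa1 window belongs to a start that lies within the annotated gene, downstream of its outermost one. Of 32851 windows of this length, 7.54% hold the Onecut letters, 3.65% the forkhead letters, 10.8% those of C/EBP, 1.42% those of Hnf4 and 37.4% CCAAT, and each kind of match is a description of letters, not a site. Foxa3 and Prox1 each held a CCAAT match, in Prox1 beginning 44 bases after the start. None of the searched letters were found in the windows of Cebpa, Cebpb and Onecut1, nor in the further windows of Foxa2 and Prox1. The C/EBP letters, searched apart from CCAAT, and those of Hnf4 were found in no window of these genes.

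In livers Cebpb was the most abundant of the 8 factors, at 75.8 ± 19.8 TPM (SD, n = 6), followed by Prox1 at 59.3 ± 25.0 and Onecut2 at 40.7 ± 23.9. Foxa3, at 39.5 ± 5.68, was the most abundant FoxA factor, and Cebpa (17.8 ± 7.63), Foxa1 (9.0 ± 3.63), Foxa2 (8.50 ± 4.55) and Onecut1 (8.50 ± 6.63) came below it. Neighbors in this order were compared within each sample. Cebpb and Prox1, Onecut2 and Foxa3, Foxa1 and Foxa2, and Foxa2 and Onecut1 differed by less than 1 SD of their differences on the log2 scale.

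In tumors the order began with Cebpb at 55.6 ± 22.9 TPM (SD, n = 12), Prox1 at 53.2 ± 27.9 and Foxa3 at 47.9 ± 15 (SD). A gap followed, and Foxa3 exceeded Cebpa in 11 of 12 tumors. Cebpa (9.0 ± 3.30), Onecut2 (7.50 ± 7.55), Onecut1 (6.33 ± 5.0), Foxa2 (5.75 ± 2.18) and Foxa1 (5.42 ± 2.35) made up the lower group, in which no neighbors differed by more than 1 SD of their differences. Onecut2 was the factor that changed place, from beside Foxa3 in livers to the low group in tumors.

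**Figure D1:**
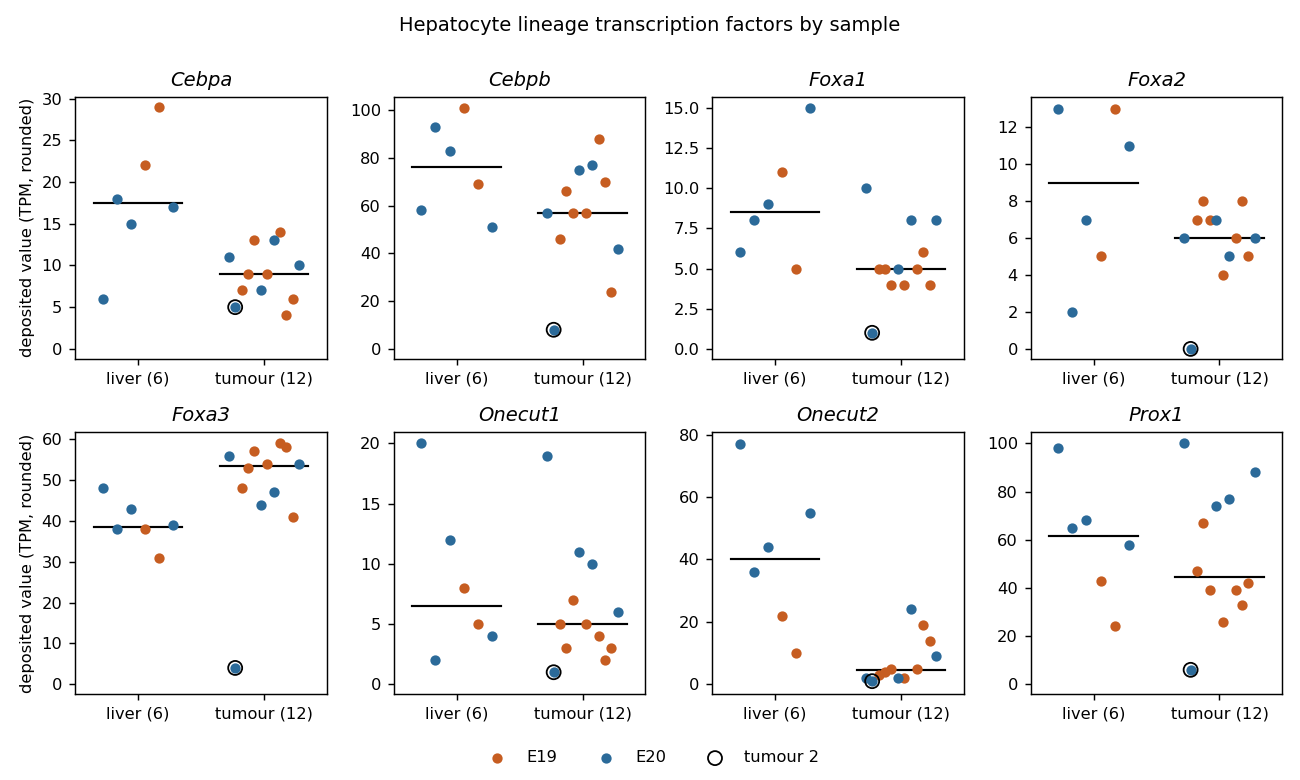
Deposited values (rounded TPM, vertical axes, each panel on its own scale) of the 8 factors in 6 livers and 12 tumors, 1 point per sample, colored by tag, with the group medians as lines and tumor 2 ringed. Onecut2 was below 10 in 9 tumors, while the lowest liver was at 10, and tumor 2 had the lowest tumor value in 7 of the 8 panels, all but Cebpa.

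Of the 8 factors, all of which passed the filter on low values, 2 had an adjusted p under 0.05 between tumors and livers, both lower in tumors (limma, Benjamini-Hochberg over 11452 genes). Over all tested genes 19% were called and 9.2% were called lower, so 2 of 8 is near that background. They were Onecut2 and, close to the threshold, Foxa1. The median log2 fold change of all tested genes was -0.06. No factor had tumors that all lay below, or all above, every liver on scaled values, an arrangement found for 0.995% and 2.18% of genes. An adjusted p above 0.05 does not show that a factor was unchanged. In bulk samples, fewer cells of a type and less RNA per cell cannot be told apart.

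Onecut2 (Entrez 225631) spans 64340032 to 64398488 of chromosome 18 (GRCm38, plus strand) in 2 exons. In livers its value was lowest at 10 TPM, with a median of 40 and a highest value of 77. Tumors ran from 1 to 24 with a median of 4.5, and 9 of 12 lay below every liver. The 3 exceptions were tumor 8 at 24, tumor 10 at 19 and tumor 11 at 14. On scaled values Onecut2 fell by 2.35 on the log2 scale (standard error 0.44, limma, adjusted p = 0.000729), which made it 5.09-fold lower in tumors. Only 0.262% of the tested genes had a lower log2 fold change. Without tumor 2 the fold change was -2.35 as well (limma, adjusted p = 0.000981).

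Among livers, both E19 values of Onecut2 lay below every E20 value, a difference that was not tested within livers. The 2 E19 livers were at 10 and 22 TPM and the 4 E20 livers at 36 to 77, while tumors ran from 2 to 19 in E19 and from 1 to 24 in E20. Among E20 samples alone, where 1.12% of 10312 genes were called lower, the log2 fold change was -2.94 (limma, adjusted p = 0.0113). Among E19 samples alone, where 5.64% of 10168 genes were called lower, it was -1.30 and did not pass (limma, adjusted p = 0.203). The difference between the tags of -1.64 (standard error 0.88) did not pass either (limma interaction, adjusted p = 0.956), and for this interaction 0.0% of genes passed the adjusted threshold, with 2.84% at an unadjusted p under 0.05. What the tags contribute was not tested further.

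Onecut1 (HNF6), the better known Onecut factor of the liver (Entrez 15379), spans 74861921 to 74889648 of chromosome 9. Its values ran from 2 to 20 TPM in livers (median 6.5) and from 1 to 19 in tumors (median 5), and the groups overlapped almost entirely. The log2 fold change was -0.22, with an interval of -0.90 to 0.46 (2 standard errors either side, limma, adjusted p = 0.724). Its sign turned in E20 samples alone, where it was 0.31, and without liver 1, where it was 0.0064. The highest values were in liver 1 at 20 and in tumor 1 at 19, both E20. No strand is stated for the counting, and a lincRNA gene, Gm20649, overlaps Onecut1 on the same strand.

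The ratio of Onecut2 to Onecut1 was taken within each sample on deposited values, without scaling between samples. The 1 added to each value weighs more where values are low, so the ratio is not fully free of the scale of a sample. On the log2 scale of values plus 1 it averaged 2.17 ± 1.13 (SD, n = 6) in livers and 0.02 ± 1.54 (SD, n = 12) in tumors. The difference was -2.15 (exact permutation test over 18564 splits, two-sided, p = 0.00867, adjusted p = 0.0347 over the 4 ratios). With 0.1 added in place of 1, it was -2.36 (exact permutation, adjusted p = 0.0474). Every liver had more Onecut2 than Onecut1, with a lowest log2 ratio of 0.87, and 9 of 12 tumors lay below it. Tumors 11 and 12, of the same mouse, entered as separate samples. With these 2 averaged the difference was -2.26 (exact permutation, adjusted p = 0.0284). The adjusted p rose above 0.05 in 7 of 18 repeats that left out 1 sample, up to 0.103 without liver 6 (exact permutation). Within tags the difference was -0.65 in E19 and -3.31 in E20 (exact permutation p = 0.556 and 0.0159, adjusted p = 0.556 and 0.0635).

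**Figure D2:**
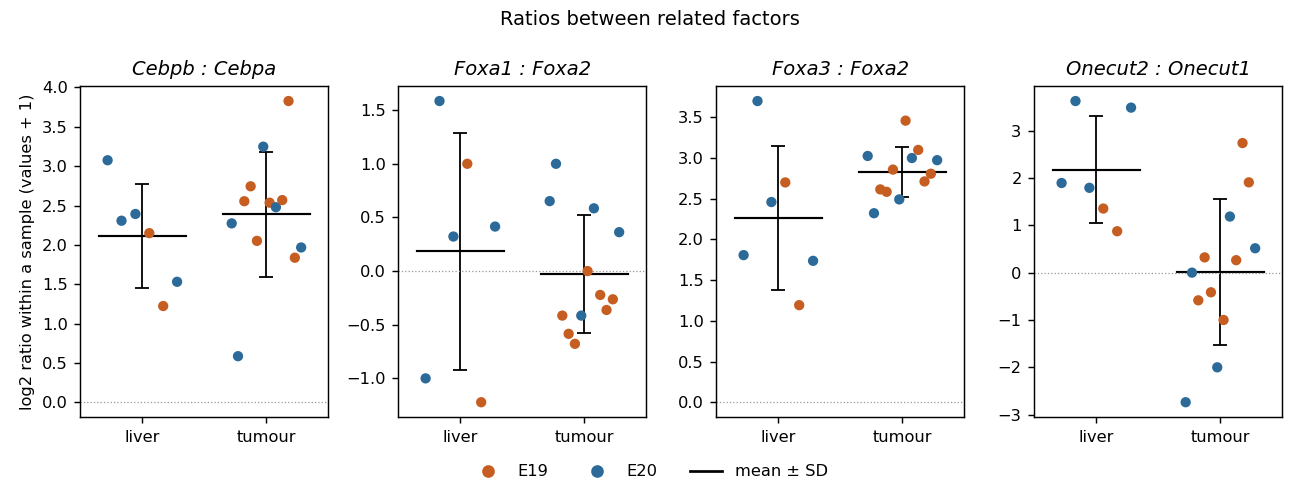
Log2 ratios of related factors within each sample (vertical axes, deposited values plus 1), 1 point per sample colored by tag, with the mean and SD of 6 livers and 12 tumors. The Onecut2 to Onecut1 ratio was lower in tumors by 2.15, and the Foxa3 to Foxa2 ratio was spread over a wider range in livers than in tumors.

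The FoxA genes lie on chromosome 12 from 57540628 to 57548029 (Foxa1), on chromosome 2 from 148042877 to 148046969 (Foxa2) and on chromosome 7 from 19013283 to 19023539 (Foxa3). Foxa1 was at 5 to 15 TPM in livers with a median of 8.5 and at 1 to 10 in tumors with a median of 5. In 4 tumors it lay below every liver, and the other 8 overlapped with livers. Its log2 fold change was -0.53 (standard error 0.18, limma, adjusted p = 0.0449). This call was lost in 12 of 18 fits that left out 1 sample, with adjusted p up to 0.154 without liver 6 (limma), and in 13 of 15 other fits. Within tags the log2 fold change of Foxa1 was -0.64 in E19 and -0.36 in E20 samples (limma, adjusted p = 0.0937 and 0.530).

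Foxa2, which controls glucose and bile acid genes in hepatocytes, was between 2 and 13 TPM in livers (median 9) and between 0 and 8 in tumors (median 6). Livers were spread more widely than tumors, with a coefficient of variation of 53.5% in livers and 20.3% in the 11 tumors other than tumor 2. The log2 fold change was -0.45 with an interval of -1.21 to 0.30 (2 standard errors either side, limma, adjusted p = 0.456). Without tumor 2, in which Foxa2 is listed at 0, it shrank to -0.23 and did not pass either (limma, adjusted p = 0.535).

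Foxa3, the FoxA factor with the highest level in adult liver here, was the only one of the 8 with a positive log2 fold change in the fit of all samples. It was at 31 to 48 TPM in livers (median 38.5) and at 41 to 59 in all tumors but tumor 2, which was at 4. On scaled values livers ran from 33.2 to 40.2, and 9 of 12 tumors lay above every liver, with tumor 2 at 20.9. Its log2 fold change was 0.28 with all samples (standard error 0.18, limma, adjusted p = 0.295) and 0.38 without tumor 2 (limma, adjusted p = 0.0292). Without tumor 2, 1627 of 11431 genes were called higher, against 1124 of 11452 with all samples. In E19 samples, where 7.5% of genes were called higher, it was 0.52, while E20 samples, where 2.76% were called higher, gave -0.04, or 0.14 without tumor 2, and none of these 3 passed (limma, adjusted p = 0.0776, 0.949 and 0.665). The log2 ratio of Foxa3 to Foxa2 was 2.27 ± 0.89 (SD, n = 6) in livers and 2.83 ± 0.31 (SD, n = 12) in tumors (exact permutation p = 0.0587, adjusted p = 0.117). Without liver 2, where Foxa2 was at 2, the difference grew to 0.85 (exact permutation, adjusted p = 0.0084). The ratio of Foxa1 to Foxa2 differed by -0.21 (exact permutation p = 0.587, adjusted p = 0.587).

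Cebpa is listed under Entrez identifier 12606 on chromosome 7 from 35119293 to 35121928, and Cebpb under 12608 on chromosome 2 from 167688915 to 167690432. Cebpa was at 15 to 29 TPM in 5 livers and at 6 in liver 1, with a median of 17.5. Tumors ran from 4 to 14 (median 9), so that in the deposited values 5 of 6 livers lay above every tumor. On scaled values tumor 2 rose to 26.1 and 1 liver lay above every tumor, while the other 11 tumors reached at most 11.9, below 5 of the 6 livers. The log2 fold change was -0.69 (standard error 0.32) and did not pass (limma, adjusted p = 0.150). It passed without liver 1, at -1.0 (limma, adjusted p = 0.0152), and without tumor 2, at -0.82 (limma, adjusted p = 0.0391). These 2 fits called 2479 of 11352 and 3070 of 11431 genes, against 2178 of 11452 with all samples.

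Cebpa was also compared within each tag. In E19 samples alone, where 13.1% of genes were called, its log2 fold change was -1.57 (limma, adjusted p = 0.0175), with livers at 22 and 29 and tumors at 4 to 14. In E20 samples alone, where 3.89% were called, it was -0.13 (limma, adjusted p = 0.902), with livers at 6 to 18 and tumors at 5 to 13. The difference between tags of 1.44 (standard error 0.62) did not pass over all genes (limma interaction, unadjusted p = 0.0307, adjusted p = 0.956).

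Cebpb was at 51 to 101 TPM in livers (median 76) and at 24 to 88 in the tumors other than tumor 2, which was at 8. In 4 tumors it lay below every liver. Its log2 fold change was -0.40 with an interval of -0.84 to 0.04 (2 standard errors either side, limma, adjusted p = 0.225), and it passed in none of the alternatives run. The log2 ratio of Cebpb to Cebpa was 2.11 ± 0.66 (SD, n = 6) in livers and 2.39 ± 0.79 (SD, n = 12) in tumors, and their difference was smaller than either SD (exact permutation p = 0.476, adjusted p = 0.587). Its lowest value, 0.58, was in tumor 2, and its highest, 3.83, in tumor 10, where Cebpa was lowest at 4. An antisense gene, Gm45091, overlaps Cebpa and Tmem189 overlaps Cebpb on the opposite strand, and reads of such partners cannot be told apart without strand.

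Prox1 (Entrez 19130) spans 190118035 to 190170827 of chromosome 1 on the minus strand. It was at 24 to 98 TPM in livers (median 61.5) and at 26 to 100 in the tumors other than tumor 2, at 6. The log2 fold change was -0.11 with an interval of -0.61 to 0.40 (2 standard errors either side, limma, adjusted p = 0.827), and its sign turned with the tag as a covariate, at 0.05. Leaving out 1 sample moved it from -0.28 without liver 5 to -0.0023 without liver 1, with -0.06 without tumor 2, and none of these fits passed.

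Prox1 followed the tag in both tissues. E19 livers were at 24 and 43 TPM and E20 livers at 58 to 98. E19 tumors ran from 26 to 67 with a median of 39, and E20 tumors were at 74 to 100 but for tumor 2. With tumor or liver in the fit, Prox1 was higher in E20 samples by 0.63 on the log2 scale (standard error 0.20, limma, adjusted p = 0.0315), and by 0.78 without tumor 2 (limma, adjusted p = 0.0037). This comparison was added after the values were seen, and in it 20.7% of genes were called. None of the other 7 factors passed in it, with adjusted p between 0.0858 for Foxa3 and 0.760 for Cebpa (limma). Prox1os, an antisense gene within Prox1 that was at 0 to 11, fell by 1.13 on the log2 scale in tumors (limma, adjusted p = 0.00643).

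**Figure D3:**
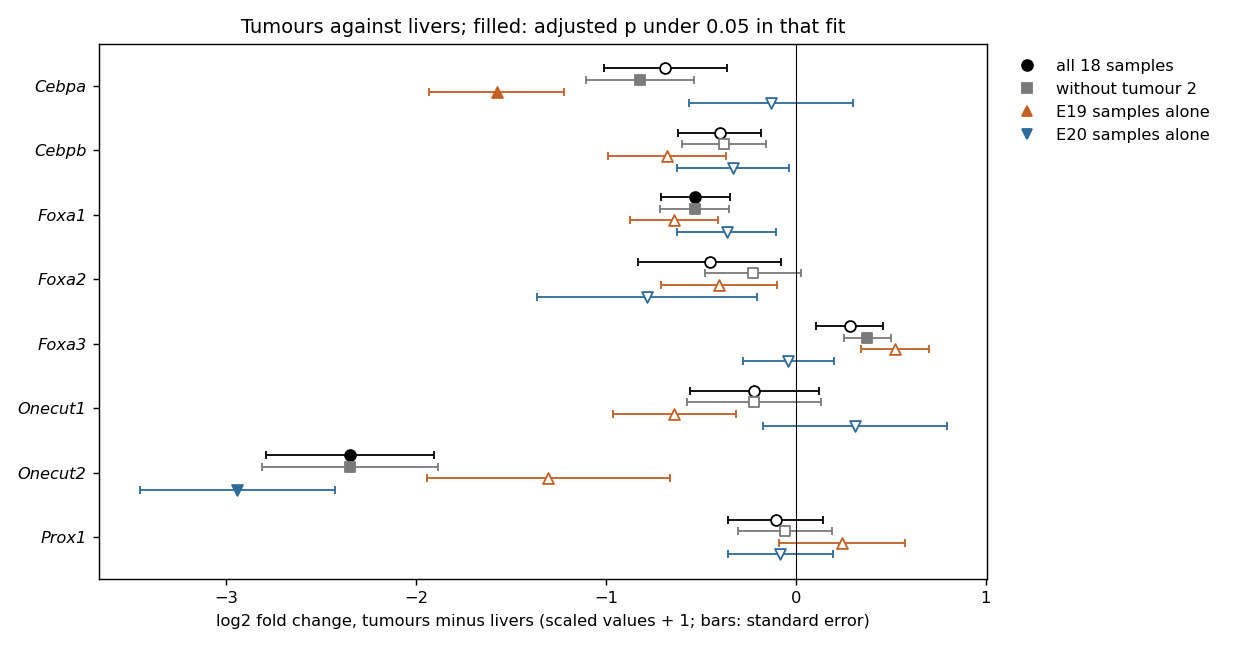
Log2 fold changes of tumors minus livers (horizontal axis, scaled values plus 1) with standard errors for the 8 factors, in all 18 samples, without tumor 2, and in E19 or E20 samples alone, with filled symbols for an adjusted p under 0.05 in that fit. Onecut2 lies at -2.35 in all samples, the symbols of Cebpa lie at -1.57 in E19 and -0.13 in E20 samples, and those of Prox1 lie on both sides of 0.

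Across tumors the factors varied to different degrees. In the 11 tumors other than tumor 2, deposited values of Foxa3 had a coefficient of variation of 11.6%, Foxa2 of 20.3%, Cebpb of 30.2%, Cebpa and Foxa1 of 34.2% each, Prox1 of 43.0%, Onecut1 of 72.4% and Onecut2 of 94.2%. The highest tumor exceeded the lowest by 1.44-fold for Foxa3 and by 12.0-fold for Onecut2. In livers Foxa3 was also the least variable, at 14.4%, and Onecut1 the most, at 77.9%, with Onecut2 at 58.7%.

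Whether the factors moved together between tumors was tested on scaled log2 values over 11 mice, with tumors 11 and 12 averaged, for 28 pairs. No pair passed after adjustment over the 28 (0 pairs by Pearson's r and 0 by Spearman's rho, with 2 by each at an unadjusted permutation p under 0.05). By rho the strongest pair was Cebpb with Foxa1, at -0.68 (permutation p = 0.0251, adjusted p = 0.488), with r = -0.34. The strongest by r was Foxa2 with Foxa3, with r = 0.85 (permutation p = 0.0116, adjusted p = 0.162) and rho = 0.50 (permutation p = 0.120). Its r was 0.39 without tumor 2 and -0.0042 without the 2 tumors farthest from the median of Foxa2. Cebpa with Foxa2 had r = -0.81 (permutation p = 0.00708, adjusted p = 0.162) and rho = -0.63 (permutation p = 0.0441), and r was -0.46 without tumor 2 and -0.39 without the 2 tumors farthest from the median of Cebpa. The relation of Foxa2 with Foxa3 rests on those tumors, and that of Cebpa with Foxa2 weakened without them.

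Genes with the profile most like each factor over the 12 tumors were ranked by Spearman's rho as a description, chosen as the highest among all tested genes, so without a test. All points share their libraries and scaling factors, and tumors 11 and 12 share a mouse. For Onecut2 the first was Mmp14, a membrane metalloprotease, at 0.86, followed by Becn1 at 0.80 and Atp6v1b2 at 0.76. For Onecut1 it was the clock gene Per2 at 0.91, then Zfp53 and Erc1 at 0.90 each. Cebpa was most like Cryl1 (0.90), Ddx56 (0.89) and Uqcc4 (0.86), and Cebpb was most like Kxd1 (0.87), Tmem50b (0.85) and Spint2 (0.84). Foxa1 was most like Ctif (0.95), Numa1 (0.94) and Bltp3a (0.92), Foxa2 like Polr2j, Mad2l1bp and Gtf2h5 (0.90 each), Foxa3 like Pigx (0.97), Sdhaf1 (0.95) and Zbtb9 (0.93), and Prox1 like Ddi2 (0.97), Clmn (0.94) and Cdc14b (0.93).

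Other liver transcription factors gave a background for these 8. Of the 23 further factors of the hepatocyte network reported here, all tested, 11 fell in tumors, where 9.2% of all tested genes were called lower. The median log2 fold change of the 23 was -0.62 against -0.06 for all genes. The lowest was Nr1i3 (CAR, a nuclear receptor that senses drugs), with a log2 fold change of -2.02, followed by Tbx3, a Wnt-responsive T-box factor, at -1.54 and Klf15, which acts in amino acid and glucose metabolism, at -1.18 (limma, adjusted p = 0.00609, 0.0298 and 0.00152). Tbx3 ran from 4 to 19 TPM in livers but from 0 to 32 in tumors, so it was not low in every tumor. Hnf4a, a central factor of the hepatocyte, had a log2 fold change of -0.10 and did not pass (limma, adjusted p = 0.739). Among 4 further members of the C/EBP group, Cebpe fell by 1.29 on the log2 scale, from 2 to 4 TPM in livers to 0 to 2 in tumors (limma, adjusted p = 0.00163). Of 7 further forkhead genes, 6 were tested and Foxo3, a target of insulin signaling, fell by 0.67 (limma, adjusted p = 0.0311), while Foxm1 was at most 2 TPM and was not tested.

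**Figure D4:**
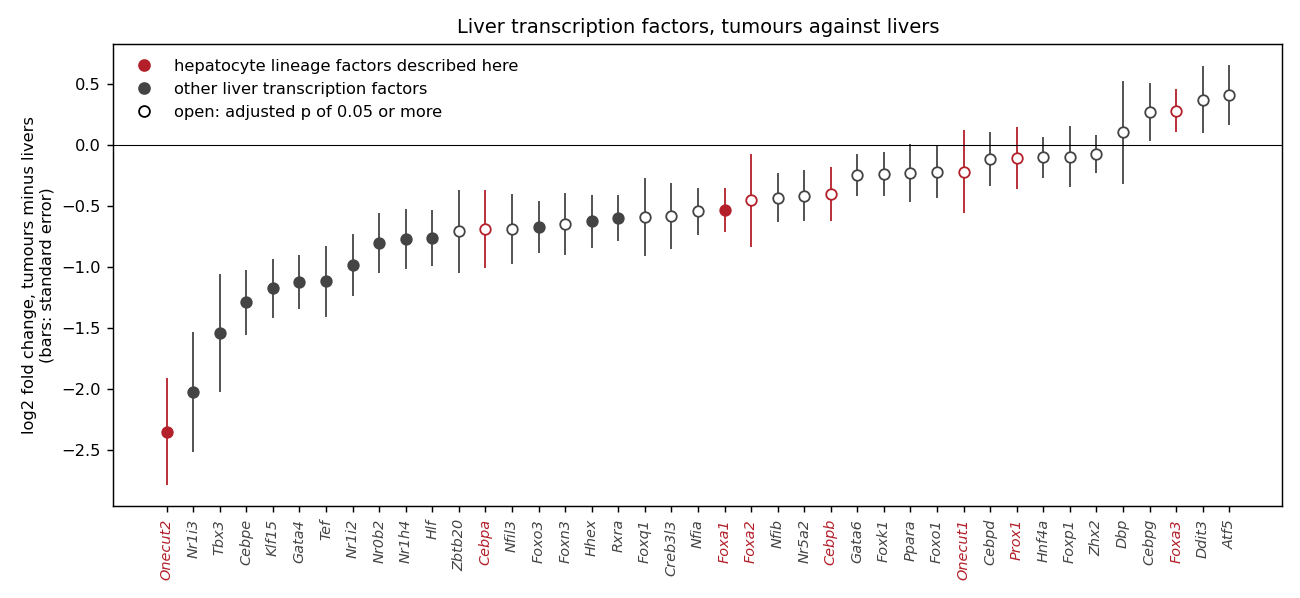
Log2 fold changes of tumors minus livers (vertical axis, scaled values plus 1) with standard errors for the 8 factors (red) and the other liver transcription factors reported here (grey), ordered by size, with filled symbols for an adjusted p under 0.05. Onecut2 at -2.35 is the lowest of the 41 genes plotted, and Foxa3 at 0.28 lies near the upper end, below Ddit3 and Atf5.

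Known targets of the factors are given by how many passed, against 19% of all tested genes. Of 16 C/EBP targets, 15 were tested, 2 fell and 1 rose. Hamp, which encodes the iron hormone hepcidin, fell by 4.61 on the log2 scale, and Tat, a tyrosine-degrading enzyme, fell by 1.61 (limma, adjusted p = 0.00185 and 0.00483), while Lcn2, an acute phase protein, rose by 3.43 (limma, adjusted p = 0.000176). Of 12 FoxA targets, 11 were tested, 2 rose and 1, Tat, fell. Igfbp1, an insulin-responsive binding protein of IGF, rose by 3.49, and Afp, the fetal albumin-like protein, rose by 4.89 (limma, adjusted p = 7.59e-07 and 2.24e-08). Of the Onecut targets reported here, 5 were tested, including Foxa2, which is itself among the 8 factors. Their median log2 fold change was -0.10, and their adjusted p lay between 0.140 and 0.839 (limma). Pfkfb1, a glycolytic regulator long known as an Onecut1 target, was at 0.09 on the log2 scale (limma, adjusted p = 0.813). None of 6 genes that act with or under Prox1, among them Cyp7a1 and Nr5a2, passed in limma (0 genes at an adjusted p under 0.05). The lists overlap, and G6pc and Tf were not found under these symbols.

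Markers of cell types moved with the same comparison, in which 9.2% of all tested genes were called lower and 9.81% higher. Of 8 hepatocyte markers, 4 fell and 1 rose, with Cyp2e1 at -2.82, Ass1 at -1.83, Hal at -1.68 and Apoa1 at 0.92 on the log2 scale (limma, adjusted p = 0.00167, 0.0304, 0.0200 and 0.0113). Of 8 markers of bile duct cells and progenitors, which also use Onecut and FoxA factors, 5 were tested and 4 rose, with Spp1 at 4.45, Prom1 at 2.64, Sox4 at 2.26 and Cd24a at 1.09 on the log2 scale (limma, adjusted p = 3.89e-07, 2.34e-06, 4.27e-05 and 0.0306). Sox9 did not pass (limma, adjusted p = 0.308), and Krt19, Krt7 and Epcam were at most 2 TPM in any sample and were not tested. The summed scaled level of the 8 was 10.3 to 21.9 in livers and 70.2 to 963 in tumors. In tumors this sum was mostly Spp1, whose deposited values ran from 60 to 716, against 65 to 752 for all 8. All 4 tested proliferation genes rose, and their summed scaled level was 0 to 2.81 in livers and 5.92 to 28.5 in tumors.

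Among non-parenchymal markers, endothelial and stellate cell genes held most of the calls, and 19% of all tested genes were called. Of 4 Kupffer cell markers 3 were tested and Clec4f fell by 1.47 on the log2 scale (limma, adjusted p = 0.0375), with a summed scaled level of 29.9 to 95.5 in livers and 2.56 to 60.1 in tumors. Of 4 endothelial markers, Pecam1 and Cdh5 rose by 1.15 and 0.93 (limma, adjusted p = 0.0003 and 0.000345). Of 5 lymphatic markers, which bear on Prox1, 2 were tested, Lyve1 and Flt4, and 0 passed. Pdpn and Mmrn1 are listed at 0 in every sample, and Ccl21a was at most 1 TPM. Sums of this list are therefore almost wholly those of Lyve1 and Flt4. The scaled sum of the 5 was 4.38 to 23.2 in livers and 4.25 to 157 in tumors. The 157 was in tumor 2, whose sum also lay above every liver before division by its small factor. Deposited sums were 6 to 24 in livers and 5 to 57 in tumors. Of 5 stellate cell and fibroblast genes Col1a1 and Col3a1 rose, at 2.15 and 1.56 on the log2 scale, and Dcn, Lrat and Des fell, at -1.30, -1.11 and -0.61 on that scale (limma, adjusted p = 0.00243, 0.00608, 0.0012, 0.0204 and 0.0336). None of 4 tested macrophage and monocyte markers passed, nor the 1 tested marker each of neutrophils and of lymphocytes, with sums of 26.1 to 119, 0 to 2.55 and 0.987 to 12.7 in tumors. Adipocyte markers summed to at most 0.933 in any sample. The part of these cell types in the levels of the 8 factors was not tested.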

How the data were processed

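Bulk RNA-seq of 6 livers and 12 tumors was used. Poly-A RNA was sequenced by the authors with paired reads, which were aligned to GRCm38 and quantified with Salmon. The values deposited by the authors, called raw counts in the study, were treated as a score in whole numbers and read as rounded TPM because 882 of 900 values of 50 genes listed as TPM in the supplement equal them after rounding. The table holds 28442 genes, and 8 lines with an extra separator were read accordingly. Columns were matched to samples by the tumor number, tag and mouse number in their labels. For 2 tumors the mouse number differed from the study's list, and each was matched as the only one left with its tumor number and tag. Ages were taken from the study's sample list.

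The factors and gene lists were chosen with earlier results of these data known. Values were divided by an unweighted trimmed mean of M values, after trimming 30% by M and 5% by A. Genes that reached a scaled value of 1 in 6 or more samples were tested. After adding a pseudocount of 1, limma 3.58.1 (R 4.3.3) was run on log2 values, with a trended prior variance and Benjamini-Hochberg adjustment. Fold changes on this scale understate those of low genes. Ratios were tested by exact permutation and correlations by 100000 permutations in Python 3.11.15 with numpy 2.4.6 and scipy 1.17.1.

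Named genes are the 8 factors, up to 3 called genes with the highest and 3 with the lowest log2 fold change of each list, the 3 genes most like each factor, and Met, Afp and Siglece. Lists held other liver factors, C/EBP, forkhead, target, partner and proliferation genes and markers of 10 cell types. Hnf4a, Alb, Foxm1, Pfkfb1, Cyp7a1, Ddit3, Atf5, Nr5a2, Prox1os, Sox9, Krt19, Krt7, Epcam, the overlapping genes and the markers listed at 0 were named outside that rule. A few listed genes are not reported here and were left out of their lists' counts and medians. Positions and promoters are those of RefSeq on GRCm38.p6, and exons and overlaps those of GENCODE M21. Livers and tumors 1 to 6 share numbers, but their labels give different mice, so the numbers do not pair mice. Deviations of same-numbered samples correlated at 0.17 on average over 6 pairs (-0.14 to 0.43), against -0.04 over 30 pairs with different numbers. Most same-numbered pairs also share a tag, and what the tag contributes was not tested.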

Additional observations from a re-analysis of the deposited data

How the results depend on the processing

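The fall of Onecut2 kept its direction and its call in all 18 fits without 1 sample (log2 fold change -2.63 to -2.18) and in 14 of 15 other fits (-3.00 to -2.27), with E19 samples alone as the exception (-1.30). The count of called factors, 2 of 8, was 1 without scaling, by median of ratios, by the total without Siglece, without the filter, with a pseudocount of 0.1, with the tag or age as a covariate, in E19 or E20 samples alone, and in E20 samples without tumor 2. It was 4 with sample quality weights, and 1 to 4 without 1 sample, with 4 without tumor 2. The main limma and ratio tests counted tumors 11 and 12, of 1 mouse, as separate samples. With these 2 averaged, 2 factors were called, Onecut2 and Foxa1 (limma, adjusted p = 0.000527 and 0.0457). Over all genes, 2178 were called. Without 1 sample the count was 1664 to 3070, without scaling 1341, in E19 samples 1336, in E20 samples 401 (500 without tumor 2) and with sample quality weights 4494. The total without Siglece gave 1132 higher and 684 lower, against 1124 and 1054. Without scaling the median of all genes was -0.18 instead of -0.06. With the replicate number as a block over livers and tumors 1 to 6, limma called 1367 genes, and 1223 without the block. In both fits 1 of the 8 factors was called. Same-numbered samples correlated best with each other in 3 of 6 livers.

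Signs turned for Foxa3 in E20 samples (-0.0393), for Onecut1 in E20 samples (0.31, and 0.43 without tumor 2), in livers and tumors 1 to 6 with or without the block (0.0273) and without liver 1 (0.0064, with -0.48 to 0.0064 over the fits without 1 sample), and for Prox1 with the tag as a covariate (0.0526), in E19 samples (0.24) and in E20 samples without tumor 2 (0.13), all 3 far from the threshold in limma. The ratio of Cebpb to Cebpa turned to -0.22 in E20 samples, and that of Foxa1 to Foxa2 to 0.11 in E20 samples (-0.49 to 0.0686 without 1 sample). The ratio of Foxa3 to Foxa2 ran from 0.35 to 0.85 without 1 sample. The ratio of Onecut2 to Onecut1 ran from -2.41 to -1.86 without 1 sample, and was -0.65 in E19 samples, -3.31 in E20 samples (exact permutation, adjusted p = 0.0635) and -3.07 with the replicate block (exact sign-flip test of 6 pairs, adjusted p = 0.125). The E19 samples and the replicate block are too small for 1 ratio alone to pass after adjustment over 4 ratios. The unadjusted p of the block was the smallest it allows. The E20 samples are not too small for this, and their ratio did not pass. Of 28 pairs of factors, 1 passed without scaling. The causes were not tested. Fits of E20 samples without tumor 2, and unscaled fits without it, were chosen after seeing the data. Tag subsets hold 2 to 7 samples per group. A value of 0 stands for any TPM that rounds to 0, and 1 TPM in tumor 2 becomes 5.22 after scaling.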

Other observations

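Tumors 11 and 12 came from 1 mouse, 49 weeks old, and carry different tags. Prox1 was at 42 TPM in tumor 11 and at 88 in tumor 12, Cebpb at 24 and 42, Foxa1 at 4 and 8, Onecut1 at 3 and 6 and Cebpa at 6 and 10. Onecut2 was at 14 and 9, Foxa2 at 5 and 6 and Foxa3 at 41 and 54. No test was made on this pair.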
